A study of Mus musculus with 12 samples.

Results

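The genes described here encode splicing regulators and related RNA-binding proteins of 6 families: SR proteins (Srsf), heterogeneous nuclear ribonucleoproteins (Hnrnp), numbered RNA-binding motif proteins (Rbm), muscleblind-like proteins (Mbnl), CELF proteins (Celf) and RBFOX proteins (Rbfox). They were chosen by gene symbol alone, from probe sets that the platform annotation assigns to a single gene, and each gene was read from the probe set whose mean log2 intensity over the 12 arrays was highest. This gave 77 genes with 226 probe sets, of 18194 genes in all. Of these, 60 were at or above the median of the gene means (log2 8.556) and entered the test over 9097 genes, and 17 were dimmer and were not tested. Each array held RNA of the gastrocnemius, a fast calf muscle, of a different male mouse from generation 37 of a selection experiment, aged 79 to 86 days (mean 84). The 6 mini-muscle mice came from HRmini line #3 and the 6 regular-muscle mice from HRnormal line #8, and both lines had been bred for high voluntary wheel running (HR). The mini-muscle phenotype is a strong reduction of hindlimb muscle mass. A mini-muscle array holds the RNA of both calves of its mouse and a regular-muscle array that of 1 calf, since more tissue was needed to reach enough mini-muscle RNA. Each group is therefore a single line with its own sampling, so phenotype, line and pooling cannot be told apart.

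Splicing regulators bind short sequence elements in newly made transcripts and favour or hinder the use of nearby exons. SR proteins mostly promote the inclusion of exons, hnRNPs often oppose it, and both groups of proteins also act in RNA export, stability and translation. In striated muscle, MBNL, CELF and RBFOX proteins set the splicing programme of contractile and calcium-handling genes, and loss of free MBNL protein on expanded repeats is a cause of human myotonic dystrophy. The arrays read the amount of transcript and do not show which exons were used.

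Of the 60 genes tested, 15 changed between the groups at an adjusted p under 0.05 (25.0%), beside 26.7% of all genes tested. Of these, 8 were higher in mini-muscle (background 14.9%) and 7 were lower (background 11.8%). The families as a whole thus changed at about the background rate. The arrays of the groups did not overlap for 9 of the 60 genes (background 13.0%). The changes were mostly small: 2 called genes, Rbm45 and Hnrnpl, differed at least 1.5-fold, where 11.0% of all genes were called at that size. The median difference was 0.05 on the log2 scale, beside 0.03 over all genes, and the median absolute difference was 0.197, beside 0.218. When all probe sets of a gene were averaged, dim ones included, 4 members were called, all of them higher, and the count over all genes fell to 1543 from 2426.

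**Figure D1:**
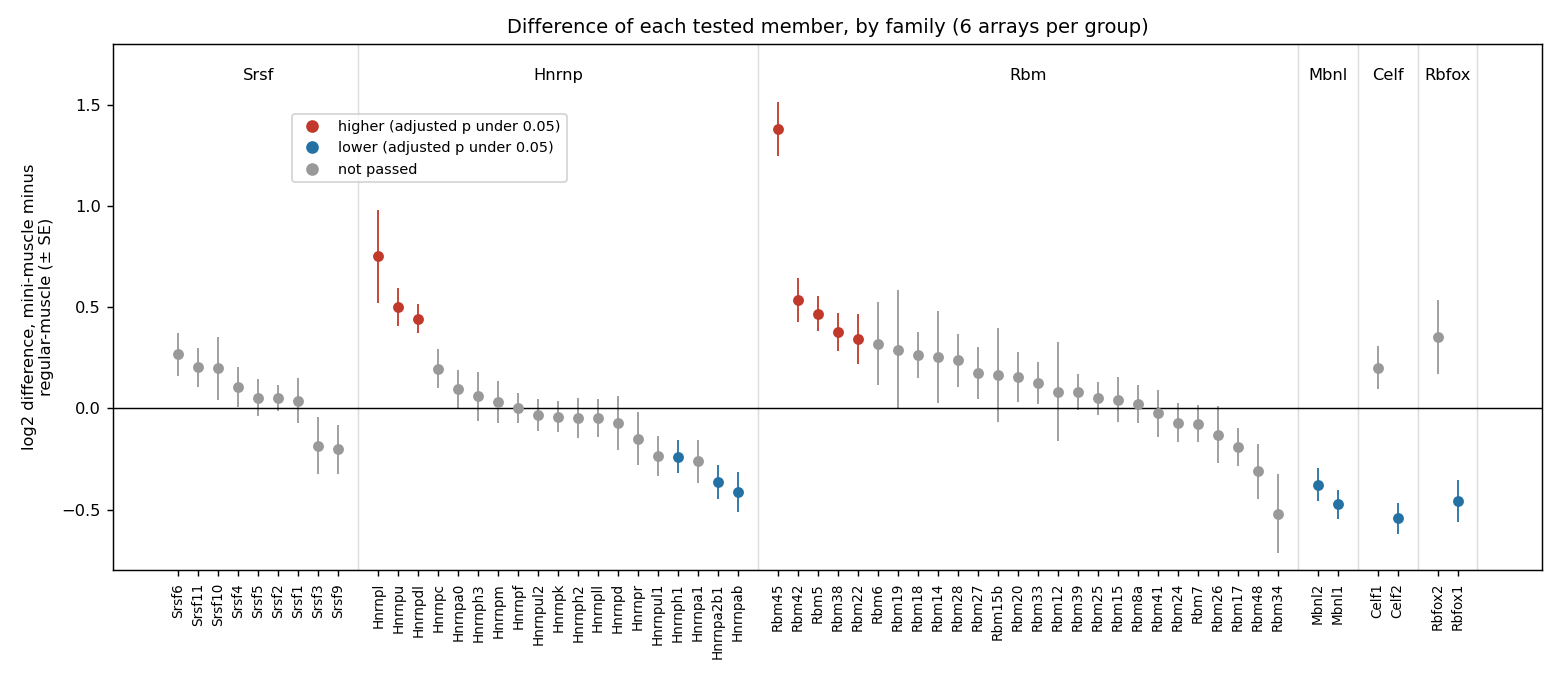
Difference between mini-muscle and regular-muscle arrays (log2 scale, vertical axis) for the 60 tested genes, grouped by family, with bars for the standard error of the moderated fit. Rbm45 stands at 1.38, both tested Mbnl genes lie below 0, and the 9 Srsf genes lie between -0.20 and 0.27.

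By family, 0 of 9 Srsf genes changed, and 3 of 19 Hnrnp genes were higher and 3 lower. Among the Rbm genes, 5 of 26 were higher and 0 were lower. Both tested Mbnl genes, 1 of 2 Celf genes and 1 of 2 Rbfox genes were lower. Beside these counts, 14.9% of all genes tested were higher and 11.8% lower. Most families have few tested genes, and differences between the families were not tested.

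**Figure D2:**
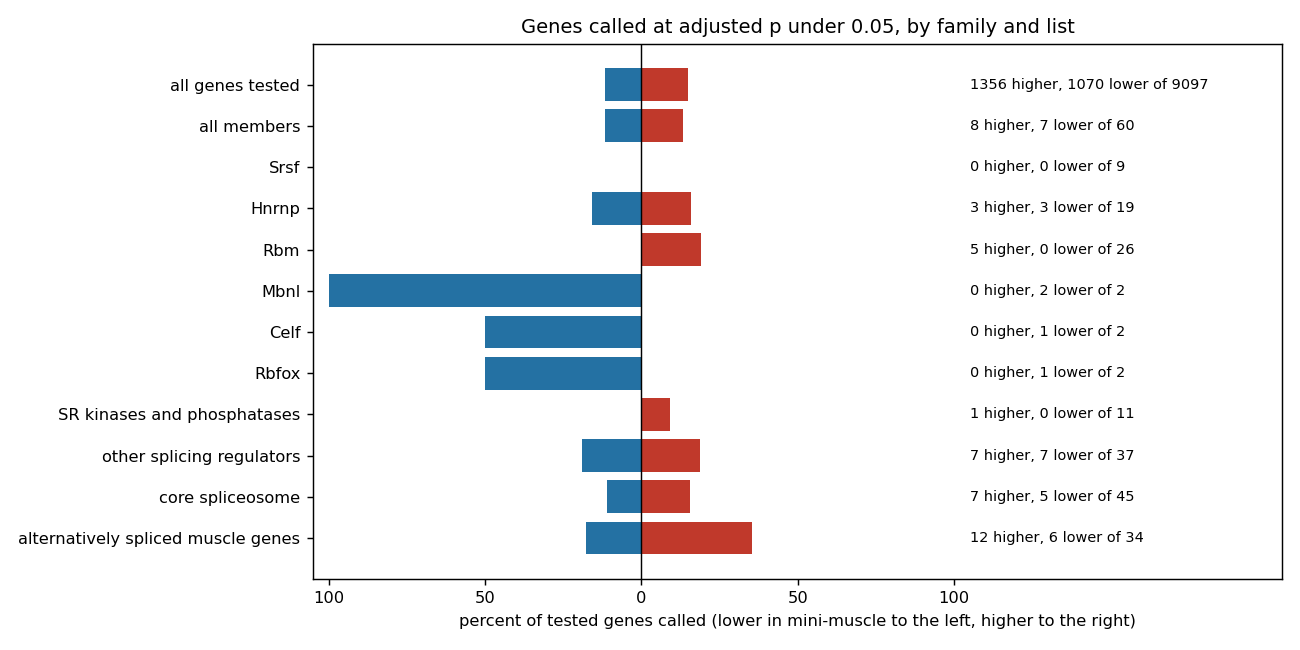
Percent of tested genes called lower (left of 0) or higher (right of 0) in mini-muscle for all genes, the 6 families and 4 lists of other splicing genes, with the counts at the right. The Mbnl, Celf and Rbfox bars rest on 2 tested genes each, and the all-gene bars are 11.8% and 14.9%.

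The muscle splicing regulators Mbnl1, Mbnl2, Celf2 and Rbfox1 all fell in mini-muscle, by 1.30-fold to 1.46-fold. Mbnl1 encodes the main muscleblind protein of adult muscle, which promotes adult-type exon choices. Its log2 intensity had a lowest, median and highest value of 14.91, 15.08 and 15.22 in mini-muscle, and of 15.33, 15.58 and 15.72 in regular muscle. All mini-muscle arrays thus lay below all regular-muscle arrays, and the difference was -0.47 (SE 0.07, adjusted p = 8.9e-05). Mbnl2, its close relative, had 14.23, 14.45 and 14.74 in mini-muscle and 14.73, 14.83 and 15.02 in regular muscle. A single mini-muscle array reached the lowest regular-muscle array, and the difference was -0.38 (SE 0.08, adjusted p = 0.0018).

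Celf2 belongs to the CELF family, whose members oppose MBNL proteins at many exons. It had 12.50, 12.65 and 12.80 in mini-muscle against 13.07, 13.19 and 13.37 in regular muscle. The groups did not overlap, and Celf2 fell 1.46-fold (-0.54, SE 0.08, adjusted p = 3.9e-05). Celf1, the relative best known in myotonic dystrophy, did not pass (0.20, adjusted p = 0.18). Its mini-muscle arrays lay between 13.34 and 13.59 and its regular-muscle arrays between 12.81 and 13.59.

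Rbfox1 encodes a muscle and neuronal regulator that binds UGCAUG elements. It had 13.13, 13.70 and 13.95 in mini-muscle and 14.07, 14.10 and 14.19 in regular muscle. The regular-muscle arrays lay close together above all mini-muscle arrays, and the difference was -0.46 (SE 0.10, adjusted p = 0.0028). Its lowest array was mini-muscle replicate 3, and without that array the difference was -0.35 and still passed. Rbfox2, which acts on the same elements, had a difference of 0.35 that did not pass (adjusted p = 0.17). It passed without mini-muscle replicate 3 (0.49, adjusted p = 0.032) and with all its probe sets averaged (0.68, adjusted p = 0.040). That average included dim probe sets at 0.60 and 1.43, whereas the bright ones stood at 0.35 and 0.36. All 4 lower genes of these families lost the call when all probe sets of a gene were averaged: Mbnl1 then stood at -0.18 (adjusted p = 0.80), Mbnl2 at -0.20 (0.13), Celf2 at -0.29 (0.30) and Rbfox1 at -0.31 (0.062). The probe sets of Mbnl2 and Rbfox1 were all bright, whereas those of Mbnl1 and Celf2 included dim ones. In the fit on averages of bright probe sets alone, with the same values, Mbnl2 did not pass (adjusted p = 0.097) and Rbfox1 did (adjusted p = 0.043).

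**Figure D3:**
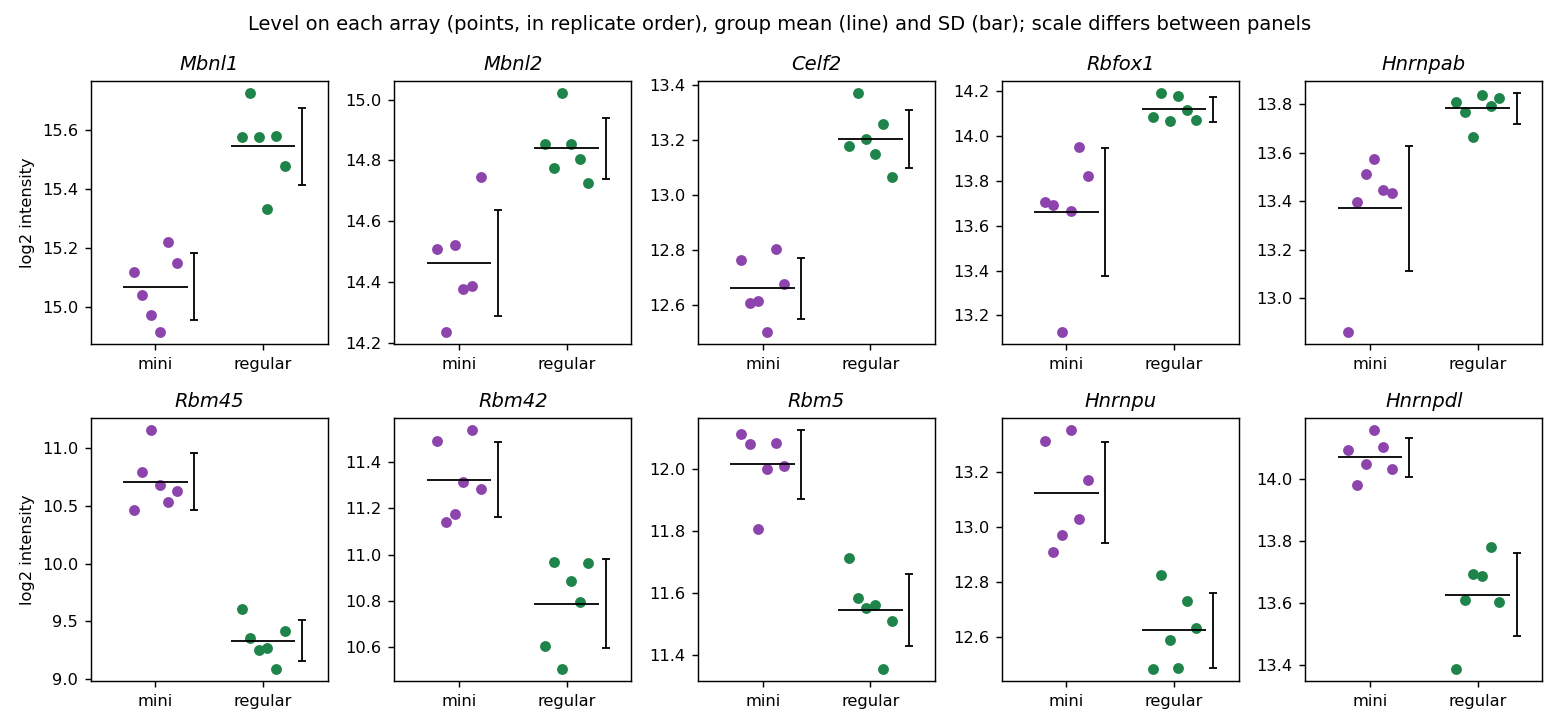
Log2 intensity on each of the 12 arrays for 10 called genes, mini-muscle beside regular muscle, with a line at each group mean, a bar of 1 SD to either side and a scale of its own in each panel. The groups do not overlap except for Mbnl2, where 1 mini-muscle array (14.74) lies above the lowest regular-muscle array (14.73). The called genes not shown, Hnrnpl, Hnrnph1, Hnrnpa2b1, Rbm38 and Rbm22, all have overlapping groups.

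The SR proteins, which carry arginine and serine repeats and help define exons, showed no called gene among 9 tested, beside 26.7% of all genes tested. Of the 9, 2 had an unadjusted p under 0.05 in the limma test, and the share of all genes under that limit was not counted. Srsf6 came nearest, at 0.27 (SE 0.11, adjusted p = 0.071). Its mini-muscle arrays had 11.82, 12.24 and 12.46 as lowest, median and highest log2 intensity, and its regular-muscle arrays 11.80, 11.93 and 12.17, so the groups overlapped. Srsf6 passed without mini-muscle replicate 3 (0.35, adjusted p = 0.0095) and without regular-muscle replicate 5 (0.31, adjusted p = 0.047). Srsf1, the founding member, stood at 0.04 (adjusted p = 0.84), Srsf2 at 0.05 (0.62), Srsf3 at -0.18 (0.38) and Srsf5 at 0.05 (0.73). Srsf10 and Srsf11, an SR repressor and an SR-related protein, stood both at 0.20 (adjusted p = 0.40 and 0.13).

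Activity of SR proteins is set by phosphorylation. Of 11 tested SR kinases, phosphatases and related enzymes, 1 changed (background 26.7%): Srpk3, a kinase made mainly in striated muscle. Srpk3 was higher by 0.68 in mini-muscle (SE 0.11, adjusted p = 1.4e-04). Its mini-muscle arrays lay between 12.76 and 13.15 and its regular-muscle arrays between 11.90 and 12.58, without overlap. With all its probe sets averaged, a dim one included, it stood at 0.28 (adjusted p = 0.29). Its other bright probe sets stood at 0.54 (adjusted p = 0.018 over every probe set) and 0.04.

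Among the hnRNPs, Hnrnpl, Hnrnpu and Hnrnpdl rose and Hnrnpab, Hnrnpa2b1 and Hnrnph1 fell. Hnrnpu encodes an abundant nuclear scaffold protein that binds RNA and chromatin. It had 12.91, 13.10 and 13.35 in mini-muscle against 12.48, 12.61 and 12.83 in regular muscle. The groups did not overlap, and the difference was 0.50 (SE 0.09, adjusted p = 5.4e-04). Hnrnpdl, a relative of Hnrnpd whose human gene is mutated in a limb-girdle muscular dystrophy, had 13.98, 14.07 and 14.16 against 13.39, 13.65 and 13.78. It too showed no overlap, with a difference of 0.44 (SE 0.07, adjusted p = 1.5e-04), and it lost the call with all its probe sets averaged (0.14, adjusted p = 0.28).

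Hnrnpl, which binds CA-rich elements, had the largest difference of the hnRNPs, 0.75 (1.68-fold, SE 0.23, adjusted p = 0.020). Its log2 intensities were 9.50, 9.83 and 10.16 in mini-muscle and 8.06, 9.29 and 9.79 in regular muscle. The groups overlapped, and the SD was 0.60 in regular muscle against 0.25 in mini-muscle. Without regular-muscle replicate 4 the difference was 0.54 and still passed (adjusted p = 0.049). With both its probe sets averaged, 1 of them dim, it stood at 0.17 (adjusted p = 0.83).

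Hnrnpab, a protein of the A/B type that also binds single-stranded DNA, had 12.86, 13.44 and 13.57 in mini-muscle and 13.66, 13.80 and 13.84 in regular muscle. All mini-muscle arrays were below all regular-muscle arrays (-0.41, SE 0.10, adjusted p = 0.0043). Its probe set is of a type that can match several related transcripts. With all its probe sets averaged, dim ones included, the gene stood at -0.28 (adjusted p = 0.17). The other bright probe sets of Hnrnpab ranged from -0.42 to -0.18. Hnrnpa2b1, which acts in splicing and in mRNA transport, had 13.65, 13.95 and 14.08 against 14.06, 14.27 and 14.48. The ranges touched, and the difference was -0.36 (SE 0.08, adjusted p = 0.0035). It lost the call with all its probe sets averaged (-0.15, adjusted p = 0.097) and with arrays centred on their medians (-0.35, adjusted p = 0.081). Hnrnph1, a binder of G runs, had the smallest called difference, -0.24 (1.18-fold, SE 0.08, adjusted p = 0.039), with overlapping groups, and it lost the call in 7 of 12 cases of leaving out an array, at an adjusted p of up to 0.089. Those were mini-muscle replicates 1, 2, 3 and 4 and regular-muscle replicates 2, 3 and 5.

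The other 13 hnRNPs did not pass. Hnrnpa1, the best studied opponent of SR proteins, had a difference of -0.26 (adjusted p = 0.079), and passed without mini-muscle replicate 5 (-0.31, 0.040) or regular-muscle replicate 4 (-0.32, 0.032). With its bright probe sets averaged, Hnrnpa1 stood at -0.40 and passed (adjusted p = 0.0075). Hnrnpul1 stood at -0.24 (adjusted p = 0.087) and passed without mini-muscle replicate 3 (-0.28, 0.043). Hnrnpc, which binds U tracts, stood at 0.20 (adjusted p = 0.14) and passed without mini-muscle replicate 1 (0.26, 0.045). Hnrnpd stood at -0.07 (adjusted p = 0.74) and Hnrnpk at -0.04 (0.74). Hnrnpf, the relative of Hnrnph1, stood at 0.00 with an SE of 0.07.

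Of the Rbm genes, Rbm45, Rbm42, Rbm5, Rbm38 and Rbm22 rose. Rbm45 encodes a protein with RNA recognition motifs that was described in neural development. It had 10.47, 10.66 and 11.16 in mini-muscle and 9.09, 9.32 and 9.61 in regular muscle. All mini-muscle arrays thus lay well above all regular-muscle arrays, and the difference was 1.38 (2.60-fold, SE 0.13, adjusted p = 6.9e-07). Rbm45 has 1 probe set here.

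Rbm42, a partner of hnRNP K in human cells, had 11.14, 11.30 and 11.54 in mini-muscle against 10.51, 10.84 and 10.97 in regular muscle. The groups did not overlap (0.54, SE 0.11, adjusted p = 0.0012). Rbm5, a splicing factor that acts on transcripts of apoptosis genes in human cells, had 11.80, 12.04 and 12.11 against 11.35, 11.56 and 11.71. Again the groups were apart, by 0.47 on average (SE 0.09, adjusted p = 4.7e-04). With all probe sets averaged, Rbm42 stood at 0.39 (adjusted p = 0.25) and Rbm5 at 0.03 (adjusted p = 0.98). Rbm38, a p53 target that binds the 3′ ends of mRNAs and acts in myogenic differentiation, had 12.32, 12.57 and 12.64 against 11.93, 12.10 and 12.38, with overlap (0.38, SE 0.09, adjusted p = 0.0052). Rbm22, a protein of the catalytic spliceosome, was nearest to the threshold (0.34, SE 0.12, adjusted p = 0.049), and it passed in 2 of 12 cases of leaving out an array, those without mini-muscle replicate 2 and without regular-muscle replicate 6.

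Rbm20 and Rbm24, muscle splicing regulators of this family, did not pass. Rbm20, which controls titin splicing, had a difference of 0.15 (SE 0.12, adjusted p = 0.39). Rbm24, which controls muscle exons in heart and skeletal muscle, had one of -0.07 (SE 0.10, adjusted p = 0.65). Its arrays lay between 13.67 and 13.91 in mini-muscle except for replicate 3 at 13.23, and between 13.69 and 13.85 in regular muscle. Rbm39, a U2AF-related factor, stood at 0.08 (adjusted p = 0.55). Rbm34 had the most negative value of the genes tested that did not pass, -0.52 (SE 0.20, adjusted p = 0.058), and it passed without mini-muscle replicate 2 (-0.64, adjusted p = 0.020) or replicate 3 (-0.59, adjusted p = 0.043). Over all families, the 45 genes that did not pass ranged from -0.52 to 0.35, and 20 of them lay within 0.1 of 0. Rbm3, Rbm10 and Srsf7 were not analysed here.

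The other probe sets of a gene read other parts of its transcripts. Of the 15 called genes, 10 had other bright probe sets, 30 in all, of which 25 had the same sign as the one used. All other bright probe sets had the same sign for 8 of the 10 genes. The exceptions were Hnrnpdl, where 3 of 6 others had the same sign and the others ranged from -0.24 to 0.55, and Hnrnpa2b1, where 1 of 3 did and the range was -0.31 to 0.04. The other probe sets of Celf2 stood at -0.46 and -0.42, those of Rbfox1 ranged from -0.39 to -0.10, and those of Mbnl2 from -0.24 to -0.06. The other bright probe set of Rbm42 stood at 0.93 and that of Hnrnph1 at -0.46. Those of Hnrnpu ranged from 0.03 to 0.63, and those of Rbm5 stood at 0.02 and 0.35. The same sign thus includes values near 0. Mbnl1, Hnrnpl, Rbm45, Rbm38 and Rbm22 had no other bright probe set.

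**Figure D4:**
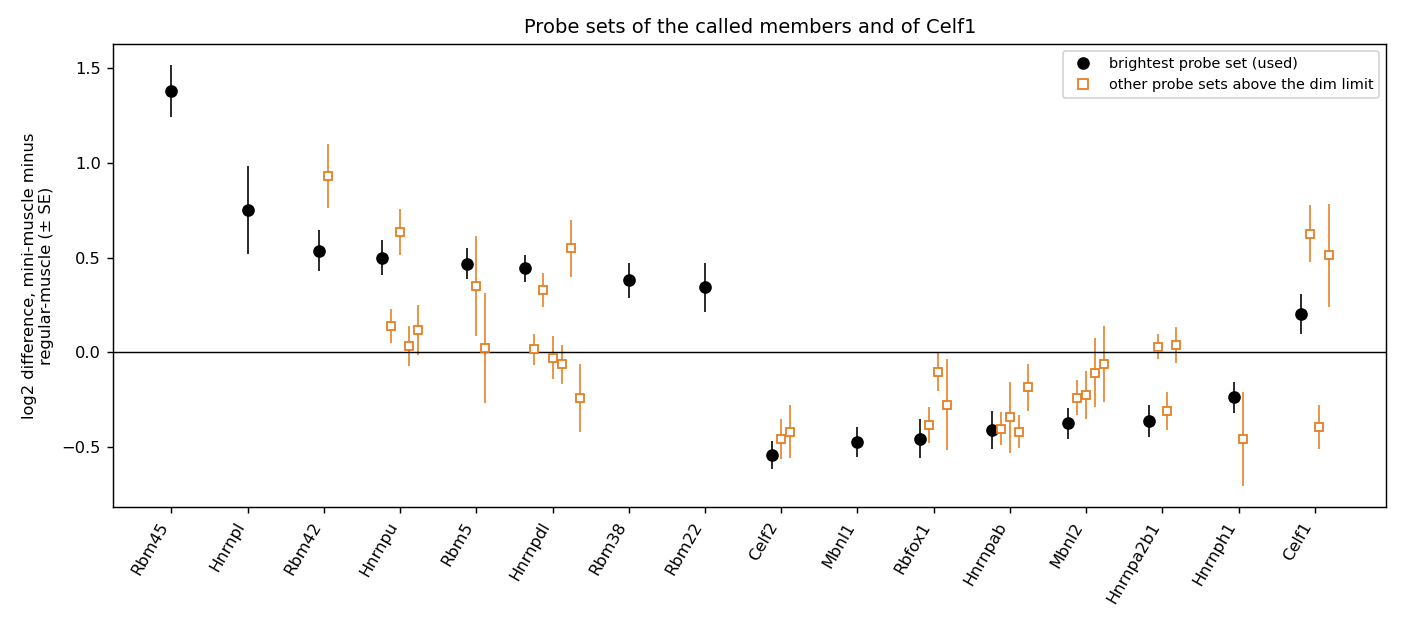
Difference between mini-muscle and regular-muscle arrays (log2 scale) for each bright probe set of the 15 called genes and of Celf1, with filled points for the probe set used, open squares for the others and bars for the SE. The probe sets of Celf1 lie on both sides of 0, from -0.39 to 0.63.

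Some genes that were not called held probe sets that moved apart. In Celf1, the other bright probe sets included one at 0.63 (adjusted p = 0.0093 over every probe set) and one at -0.39 (adjusted p = 0.039). In Hnrnpk, a poly(C)-binding protein, another probe set stood at 0.45 (adjusted p = 0.0036) and one more at -0.37. In Hnrnpa1, another probe set stood at -0.53 (adjusted p = 0.0082). Which transcript forms these probe sets read was not examined.

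The promoters of 4 called genes are shown because they set the higher Rbm45 and Rbm42 beside the lower Hnrnpab and Mbnl2. The windows are from RefSeq (GRCm38.p6) and run from 250 bases before to 50 after a start site, 300 bases in all, read 5′ to 3′ on the strand of the gene. Capitals mark the E-box CANNTG, which myogenic factors bind, the GC box GGGCGG, the CCAAT box CCAAT and the TATA box TATAAA, each searched on both strands. The windows are chr2:76369734-76370033 (+ strand) for Rbm45, chr7:30650179-30650478 (- strand) for Rbm42, chr11:51606832-51607131 (- strand) for Hnrnpab and chr14:120275419-120275718 (+ strand) for Mbnl2.
Rbm45: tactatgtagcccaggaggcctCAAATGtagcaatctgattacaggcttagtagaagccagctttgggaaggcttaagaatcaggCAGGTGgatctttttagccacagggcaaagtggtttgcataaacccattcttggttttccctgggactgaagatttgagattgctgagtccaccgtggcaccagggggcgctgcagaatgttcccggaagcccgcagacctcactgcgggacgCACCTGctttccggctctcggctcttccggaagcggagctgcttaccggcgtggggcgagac
Rbm42: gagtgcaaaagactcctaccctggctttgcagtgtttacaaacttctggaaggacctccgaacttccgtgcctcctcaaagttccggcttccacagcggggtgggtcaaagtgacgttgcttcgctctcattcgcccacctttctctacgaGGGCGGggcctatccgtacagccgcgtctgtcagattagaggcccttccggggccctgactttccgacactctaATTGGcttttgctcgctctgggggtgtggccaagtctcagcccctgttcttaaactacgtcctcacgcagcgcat
Hnrnpab: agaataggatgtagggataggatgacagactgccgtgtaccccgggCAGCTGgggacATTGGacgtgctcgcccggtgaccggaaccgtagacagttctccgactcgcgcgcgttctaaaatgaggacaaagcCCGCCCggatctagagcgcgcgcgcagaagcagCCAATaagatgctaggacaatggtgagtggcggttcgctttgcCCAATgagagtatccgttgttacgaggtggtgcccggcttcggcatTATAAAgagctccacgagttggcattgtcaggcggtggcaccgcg
Mbnl2: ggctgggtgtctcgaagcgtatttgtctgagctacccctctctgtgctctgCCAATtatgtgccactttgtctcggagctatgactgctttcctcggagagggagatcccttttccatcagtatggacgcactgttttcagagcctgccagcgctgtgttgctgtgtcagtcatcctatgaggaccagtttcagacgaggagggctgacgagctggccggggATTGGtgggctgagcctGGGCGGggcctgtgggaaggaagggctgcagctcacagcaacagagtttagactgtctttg
The Rbm45 window held 3 E-boxes and 0 of the other motifs. The Rbm42 window held 0 E-boxes, 1 GC box and 1 CCAAT box, and the Mbnl2 window 0 E-boxes, 1 GC box and 2 CCAAT boxes. The Hnrnpab window held 1 E-box, 1 GC box, 3 CCAAT boxes and 1 TATA box.

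Promoter windows were listed for 66 of the 77 genes, 99 windows in all. Of these, 67.7% held an E-box, beside 72.3% of all 32851 windows, and 58.6% held a GC box, beside 35.7%. A CCAAT box was found in 42.4% (all windows 37.4%) and a TATA box in 11.1% (all windows 13.6%). The median GC content was 62% in the windows of these families and 52.7% over all windows. Of the windows of genes that rose, 3 of 7 held an E-box, and of those of genes that fell, 12 of 18 did. Several windows of a gene can overlap, and these matches are descriptions of the sequence.

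Lists of other splicing genes, written from textbook knowledge, were read in the same fit. Of 37 other splicing regulators tested, 7 were higher and 7 lower (background 14.9% and 11.8%). Syncrip, an hnRNP Q protein, fell by 0.65 (SE 0.10, adjusted p = 6.5e-05), and its mini-muscle arrays lay between 11.98 and 12.45 against 12.57 and 13.02 in regular muscle. Qk, which encodes the STAR-family protein quaking, fell on the probe set used (-0.45, SE 0.07, adjusted p = 1.5e-04), whereas its 6 other bright probe sets ranged from 0.13 to 0.96. The sign of Qk thus depended on the probe set. Matr3, a nuclear matrix protein mutated in a human distal myopathy, rose by 0.44 on the probe set used (SE 0.08, adjusted p = 3.2e-04). It stood at -0.08 when all its probe sets were averaged, and its other bright probe sets stood at -0.10 and -0.23. The sign of Matr3 thus also depended on the probe set. Syncrip with all its probe sets averaged stood at -0.22 (adjusted p = 0.27), and its other bright probe sets ranged from -0.25 to 0.09.

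Of 45 core spliceosome genes tested, 7 were higher and 5 lower (background 14.9% and 11.8%). Lsm6, of the ring that binds U6 RNA, stood at -0.69 (SE 0.13, adjusted p = 8.9e-04). With all its probe sets averaged, a dim one included, it stood at -0.42 (adjusted p = 0.19). Its other bright probe sets stood at -0.82 and -0.29. Plrg1, of the PRP19 complex, stood at 0.48 (SE 0.11, adjusted p = 0.0045) and Prpf3, of the U4/U6 particle, at 0.70 (SE 0.19, adjusted p = 0.010).

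Of 34 muscle transcripts known for alternative splicing, 12 were higher and 6 lower (background 14.9% and 11.8%). The smallest adjusted p-values were those of genes of slow or embryonic muscle: Tnnt1, slow troponin T, rose by 0.95 (SE 0.09, adjusted p = 7.1e-07), Tpm3, slow tropomyosin, by 0.75 (SE 0.08, adjusted p = 2.2e-06), and Tnnt2, the troponin T of heart and embryonic muscle, by 1.43 (SE 0.16, adjusted p = 2.4e-06). With all probe sets averaged, a dim one of each gene included, Tpm3 (0.27, adjusted p = 0.14) and Tnnt2 (0.75, adjusted p = 0.081) lost the call. The other bright probe set of Tnnt2 stood at 1.52 (adjusted p = 1.4e-05 over every probe set). Those of Tpm3 ranged from 0.07 to 0.51. These are differences in the amount of transcript.

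The muscle itself differed between the groups in its fibre genes and in markers of other cells. Myh4, the myosin heavy chain of type IIB fibres, stood at -1.33 (SE 0.13, adjusted p = 8.3e-07) and Myh7, that of slow fibres, at 0.99 (SE 0.11, adjusted p = 2.9e-06). The other bright probe set of Myh4 stood at -3.12 (adjusted p = 2.6e-09 over every probe set). In a list of 11 fibre-type genes, 4 were higher and 4 lower (background 14.9% and 11.8%). Mini-muscle replicate 3, which held the lowest values of Rbfox1 and Rbm24, also held the lowest Myh4 value, 15.31, against 16.07 to 16.38 in the other mini-muscle arrays. The same array held the lowest mini-muscle values of Actn3 (16.66) and of the slow genes Tnnt1 (14.83) and Tpm3 (14.92). For Myh7 the lowest was replicate 6 (15.40). In the fit with array weights, replicate 3 had the lowest weight of the 12 arrays (0.67). The 10 skeletal muscle markers were all bright, with 2 higher and 3 lower, and their summed intensity was 1055200 to 1271600 in mini-muscle and 1238300 to 1513400 in regular muscle.

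Over all genes tested, 14.9% were called higher and 11.8% lower. Of 9 fibroblast markers, 5 were lower, with Col1a1, a fibrillar collagen, at -1.42 (adjusted p = 1.4e-05). Their summed intensity was 27925 to 47991 in mini-muscle and 49520 to 75665 in regular muscle, without overlap. Of 5 tested myoblast and satellite cell markers, 2 were higher, Myog at 1.99 and Ncam1 at 2.39, and the sum over the 7 listed was 7611 to 11825 against 4862 to 6854. Of 4 tested macrophage markers, 3 were lower (Mrc1, Csf1r and Lyz2), with sums of 3999 to 5408 against 4555 to 7817. Lyz2 lost the call in 5 of 12 cases of leaving out an array and Csf1r in 2. Both also lost it with arrays centred on their medians (adjusted p = 0.055 and 0.075). The other bright probe sets of Csf1r stood at -0.56 and 0.05. Of 7 endothelial markers, 1 was higher (Pecam1, 0.50, adjusted p = 0.044, lost in 9 of 12 cases of leaving out an array), with sums of 8344 to 12166 against 6845 to 11107. Of 2 tested adipocyte markers, 1 was higher (Fabp4, 0.31, adjusted p = 0.031, lost in 6 of 12 such cases), with sums of 32999 to 48681 against 28676 to 40849. Of 3 tested Schwann cell and nerve markers, 0 changed, with sums of 6969 to 19699 against 7138 to 19466. The 4 measured blood cell markers were all dim. No marker was listed at 0. The part of these cell types in the differences of the splicing regulators was not tested, and in whole muscle fewer cells of a type and less RNA per cell cannot be told apart.

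The mini-muscle allele lies on chromosome 11, as is known from mapping of these lines, and so does Myh4. Of the splicing regulators tested, 4 lie on that chromosome: Hnrnph1 and Hnrnpab, which fell, and Srsf1 and Srsf2, which did not pass. Hnrnph1 lost its call in 7 of 12 cases of leaving out an array. Over all genes tested, 26.7% were called, and the share on chromosome 11 was not counted. A link between position and these differences was not tested. In RefSeq gene order, 20 protein-coding genes lie between Hnrnph1 and Hnrnpab, 217 between Hnrnpab and Myh4, and 425 between Srsf1 and Myh4. The other 13 called genes lie on other chromosomes.

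The 17 dim genes were Celf3, Celf4, Celf5, Celf6, Mbnl3, Rbfox3, Srsf12, Rbm4b, Rbm11, Rbm12b1, Rbm12b2, Rbm43, Rbm44, Rbm46, Rbm47 and the antisense transcripts Rbm3os and Rbm46os. Several of them, such as Celf3 to Celf6 and Rbfox3, are known from neurons. Their differences ranged from -1.85 (Rbm46) to 1.69 (Rbm11), and all had overlapping groups. When the dim genes were tested too, their lowest adjusted p was 0.082. Mbnl3, the muscleblind gene of proliferating myoblasts, ranged from 4.48 to 8.02 in mini-muscle and from 6.11 to 8.37 in regular muscle.

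Within each group the 60 tested genes varied little, with a median SD of 0.16 in both groups. Some arrays stood at an end of their group more often than others. Mini-muscle replicate 2 was the lowest of its group for 20 of the 60 genes and replicate 5 the highest for 19.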

How the data were processed

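Gene expression in gastrocnemius of 12 mice, 1 animal per array, was measured on Affymetrix arrays. The authors deposited MAS5 signals, which are intensities on a linear scale, per the submitters' processing notes. Every array had been scaled to the same target, since its mean without the 2% of probe sets at either end was 800.0. The version of MAS5 is not given in the sources, and detection calls were not used here. Array medians were 211.9 to 275.2 intensity units. Arrays have no sequencing depth, and their number limits the precision.

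Of 45101 probe sets, the platform annotation names a single gene for 34958, several for 932 and none for 9211. Intensities were taken to log2 with no offset or further normalization, the probe set of highest mean log2 was kept for each of 18194 genes, and those below the median of the gene means were left out, which left 9097. Groups were compared with limma 3.58.1 (R 4.3.3), with a two-sided moderated test (lmFit, then eBayes with a trend on intensity), with Benjamini-Hochberg adjustment over all 9097 genes and with calls at an adjusted p under 0.05. All adjusted p-values are from limma. A difference is the mini-muscle mean log2 less the regular-muscle mean log2. Other probe sets were read from a fit of every single-gene probe set. The procedure was tested on simulated data. All 77 symbols matched RefSeq.

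The members, the lists and the rule for named genes were chosen with earlier results of these data known. The rule takes up to 10 called members in each direction, a fixed list of known splicing regulators, called members whose probe sets differ in sign, and up to 3 called genes of smallest adjusted p per list. Celf1, Hnrnpk and Hnrnpa1 probe sets were singled out after their values were seen. Alternatives changed the normalization, offset, dim filter, probe set choice, trend and array weights, and left out each array.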

Additional observations from a re-analysis of the deposited data

Results flagged for a closer look

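In 8 of the 120 groups of 6 values (60 genes, 2 groups each), 1 array lay far from the nearest of the others relative to the range of its group, by Dixon's criterion. Chance flags about 1 in 20 groups. In mini-muscle, replicate 3 was low for Rbfox2 (10.27, others 10.99 to 11.3), Rbfox1 (13.13, others 13.66 to 13.95), Rbm5 (11.8, others 12 to 12.11) and Rbm24 (13.23, others 13.67 to 13.91). Replicate 1 was low for Hnrnpab (12.86, others 13.4 to 13.57), and replicate 2 was low for Rbm39 (11.43, others 11.68 to 11.76). In regular muscle, replicate 4 was low for Hnrnpd (10.77, others 11.35 to 11.47) and replicate 5 was high for Rbm48 (10.08, others 9.53 to 9.717). Of the 8 arrays, 4 were thus mini-muscle replicate 3. Without it, Rbfox2 passed (0.49, adjusted p = 0.032), and Rbfox1 (-0.35) and Rbm5 kept their calls.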

How the results depend on the processing

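The 15 called genes gave 329 values under the alternatives, of which 283 still passed and 0 changed sign. Averaging all probe sets of a gene moved the counts to 4 called members (4 higher, 0 lower) and 1543 genes in all, and its averages include dim probe sets. The other alternatives gave 12 to 17 called members. They gave 1641 (arrays centred on their medians) to 2522 (array weights) genes in all, and they did not all test the same number of genes. Leaving out an array gave 13 to 17 called members (7 to 9 higher, 6 to 8 lower) and 2153 to 2396 genes in all. Rbm45, Hnrnpu and Rbm38 passed under all 10 alternatives and in all 12 cases of leaving out an array. Hnrnph1 passed under 3 of 10 alternatives and Rbm22 under 4. Averaging bright probe sets alone, an alternative chosen after seeing the data, gave 12 called members and ended the calls of Hnrnpdl (0.14, adjusted p = 0.23), Hnrnpa2b1 (-0.15, 0.085), Mbnl2 (-0.20, 0.097), Hnrnph1 (-0.35, 0.066) and Rbm5 (0.28, 0.13), while Hnrnpa1 (-0.40, 0.0075) and Rbm33 (0.35, 0.021) passed. Qk reversed to 0.30 under both averages (adjusted p = 0.029 with all and 0.019 with bright probe sets), and Matr3 to -0.0805 (adjusted p = 0.77) with all. The cause was not tested. No scaling moved the median of all genes by over 0.1. No paired analysis was possible because the labels carry no replicate number shared between the groups, and each array is a different animal. Signal over background could not be read, since detection calls were not used here, and differences in the 17 dim genes were not detectable at this signal.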
